A study of Homo sapiens with 18 samples.

Results

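The genes described here are the 10 that encode AP-1 transcription factors and ATF3: FOS, FOSB, FOSL1, FOSL2, JUN, JUNB, JUND, ATF3, BATF and BATF3. They were chosen by gene symbol, and each matched 1 row among the 58735 genes of the count table. All 10 held enough counts to be tested. The cells were from OCI-Ly18, a cell line long kept in culture that came from a human diffuse large B-cell lymphoma. They carried green fluorescent protein and grew under the skin of NSG mice, a strain without T, B or NK cells of its own. The vehicle group was 3 mice (M_766, M_769 and M_770) and the tazemetostat group 3 mice (M_767, M_768 and M_774), the latter given 150 mg/kg of this EZH2 inhibitor daily by oral gavage. Dosing began 3 days after implantation and ran for 14 days, as did vehicle, and whether it went on later is not stated. Every mouse in both groups then received CART19 cells, an engineered T-cell product, and the fluorescent cells were sorted from its tumour 11 days later. The findings are thus those of 1 cell line, all of it exposed to CART19 cells, and UTD samples were not analysed here.

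Each mouse gave libraries A, B and C, whose letters are not explained. Mouse sums of 55712115 to 69816184 counts are the unit of comparison, with n = 3 mice per group. The labels do not say that the libraries of a mouse are separate samples of the tumour, so their spread may be technical. Library M_768_C lay far from M_768_A and M_768_B in several members. The fold changes of JUNB, JUND, BATF and BATF3 and the within-mouse correlations of FOS are given with and without it. Most other values, among them the levels and shares of M_768, include it. Of 12 B-cell markers all 12 were tested, with a summed level of 3654 to 4089 CPM (counts as a rate per library of equal size) in vehicle and 3729 to 3789 CPM in tazemetostat mice. The T-cell genes CD3D and CD3G had 0 counts in all mice, but other genes of that list had many. TRBC2 was at 115 ± 19.4 and 107 ± 13.3 CPM (SD, n = 3 mice per group), vehicle first. CD247 was at 36.6 ± 5.82 and 49.2 ± 3.95 CPM in the same order. In such bulk samples, fewer cells of a type and less RNA per cell cannot be told apart.

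AP-1 is a family of dimers that bind DNA through a basic region and hold together through a leucine zipper. Fos proteins pair with Jun proteins, whereas Jun proteins can also pair with each other. FOS, FOSB, JUN and ATF3 are induced within minutes to hours by mitogens, cytokines and stress, including the stress of making tissue into single cells, while JUND is made more constantly. In lymphocytes BATF and BATF3, which lack an activation domain, pair with Jun proteins and bind composite sites together with IRF4 or IRF8.

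The promoters of 8 members were in the RefSeq table (build GRCh38.p14), as 9 windows reaching from 250 bases before to 50 bases after the start, with 2 windows for ATF3. They are shown because JUN and ATF3 carry the same 8-base match near a start, the variant AP-1 site TGACATCA, which was searched only after the sequences had been seen. JUN and ATF3 are 2 of the 4 members higher in every tazemetostat mouse than in every vehicle mouse, and the others, FOSL2 and BATF, have no such match in their windows. Starts are those of RefSeq. The match lies at bases -67 to -60 of JUN and -123 to -116 of the upstream ATF3 start, and occurs in 2.61% of the 35116 promoters. The window of the other ATF3 start held 0 matches, and which of these starts the cells used was not tested. Because the site was picked after these sequences were seen, that share gives no measure of chance. A link between the site and the group difference was not tested. Of the motifs searched on both strands, the consensus AP-1 site TGANTCA matched FOSL2 at bases 5 to 11 (7.71% of all promoters), and the cyclic AMP element TGACGTCA matched JUND at bases -200 to -193 (1.85%). The gamma-activated site TTCNNNGAA (7.66%) and the serum response element by its name (1.29%) matched 0 of the 8 members within these windows. Bases and starts outside the windows were not searched, so a member may carry any of these motifs there. No promoter of a member held matches that overlapped. Capitals mark the match, each line reads along the gene's own strand, and a match is a run of letters, not a shown binding site.
JUN, chr1:58784071-58784150, minus strand: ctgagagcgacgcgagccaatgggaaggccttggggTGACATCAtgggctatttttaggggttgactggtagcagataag
ATF3, chr1:212565248-212565327, plus strand: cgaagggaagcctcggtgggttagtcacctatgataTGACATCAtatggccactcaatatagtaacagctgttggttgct
FOSL2, chr2:28392826-28392904, plus strand: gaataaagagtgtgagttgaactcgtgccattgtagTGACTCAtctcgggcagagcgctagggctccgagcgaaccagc
JUND, chr19:18281779-18281858, minus strand: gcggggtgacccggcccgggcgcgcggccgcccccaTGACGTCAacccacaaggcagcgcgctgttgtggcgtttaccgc

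Scaled to gene length, 2 Jun genes made up most of the family's messenger RNA. In vehicle mice JUND was at 166 ± 34.0 and JUN at 59.3 ± 27.4 CPM per kilobase of gene model (SD, n = 3 mice). FOS followed at 11.2 ± 5.01 and JUNB at 10.3 ± 0.338 CPM per kilobase, a pair whose difference was within the spread of FOS. ATF3 at 3.32 ± 0.566 and BATF3 at 3.11 ± 0.370 CPM per kilobase were also within their spread of each other. FOSB at 1.63 ± 0.847, BATF at 1.25 ± 0.159 and FOSL2 at 1.06 ± 0.105 CPM per kilobase were lower, with FOSB overlapping both others. FOSL1 was lowest at 0.271 ± 0.0511 CPM per kilobase. The order of the 10 means was the same in tazemetostat mice, where JUND was at 163 ± 16.8, JUN at 116 ± 17.3, ATF3 at 6.12 ± 0.304 and BATF3 at 3.69 ± 0.507 CPM per kilobase. Among the 48 genes that the deposited table assigns to the bZIP family, JUND ranked 3 and JUN 4 by this measure over all 6 mice, FOS 11, ATF3 23 and FOSL1 42.

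The share held by each gene differed from mouse to mouse. JUN made up 11.6, 24.1 and 33.5% of the summed length-scaled level in the vehicle mice, given here and below in the order M_766, M_769, M_770. It made up 39.3, 33.3 and 33.7% in the tazemetostat mice, in the order M_767, M_768, M_774. JUND made up 78.1, 62.8 and 52.3%, then 44.3, 52.4 and 53.01%, in the same order. M_766 thus stood apart with the lowest JUN and the highest JUND share, while M_770 lay at the level of the tazemetostat mice. Fos genes together took 3.02, 6.57 and 6.83% in vehicle and 9.40, 6.95 and 5.89% in tazemetostat mice, so the groups overlapped.

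**Figure D1:**
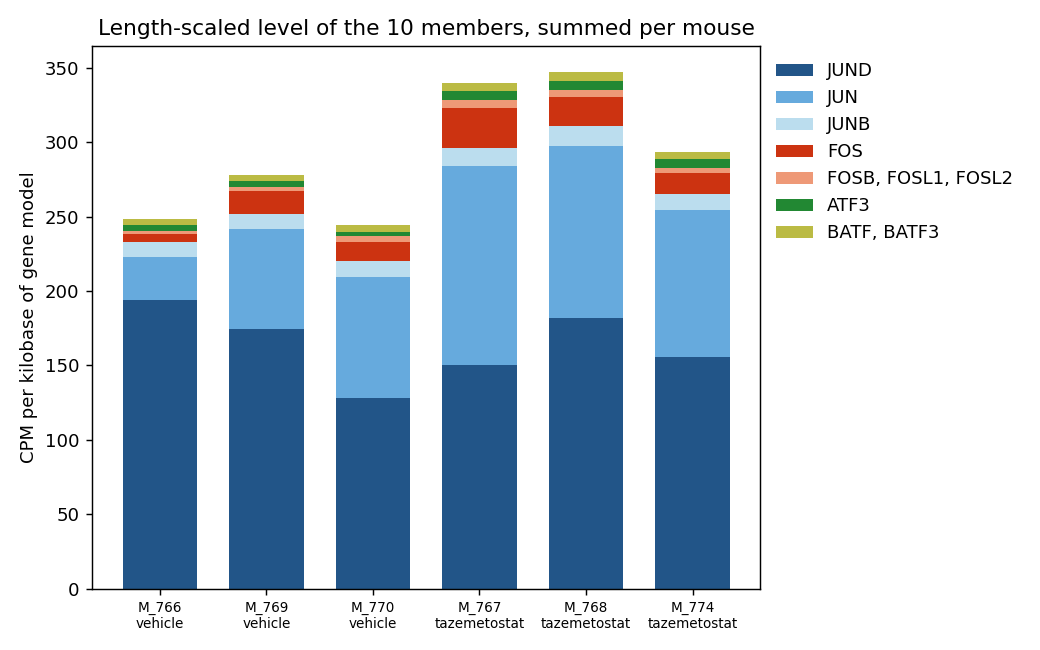
Stacked bars give the length-scaled level (CPM per kilobase of gene model) of the 10 members in each of the 6 mice, with 3 vehicle mice on the left and 3 tazemetostat mice on the right. The bars sum to 244 to 278 in vehicle and 294 to 347 in tazemetostat mice, and JUND and JUN form most of every bar.

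The comparison of the groups asked how lymphoma cells that had met CART19 cells differed between mice given the EZH2 inhibitor and mice given vehicle. Of the 10 members 8 had a positive log2 fold change, with a median of 0.45, where 48.1% of the 20301 tested genes were positive, with a median of -0.01. In 4 members (JUN, FOSL2, ATF3 and BATF) all tazemetostat mice were above all vehicle mice, which held for 6.58% of tested genes, and in 0 members were they all below, which held for 6% of tested genes. By edgeR's adjusted p over all genes 0 of the 10 were called higher, where the background was 0.0197%. At an unadjusted p under 0.05, 5 members were higher (JUN, FOS, FOSL2, ATF3 and BATF) against 3.34% of tested genes. DESeq2 called 1 member higher (ATF3), against 0.458% of its genes, and limma-voom on mouse sums 0, against 0.00985%. On single libraries, each mouse being a random effect, limma-voom called 3 higher (JUN, FOS and ATF3), against 0.876%. That fit gives all genes 1 shared correlation between libraries of a mouse (0.423). For genes whose mice differ far more than their libraries, such as FOS and JUN, it may in part count libraries as replicates. The 10 members had been picked with earlier results in view.

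ATF3 (chromosome 1, 212565334 to 212620777, plus strand), a stress-induced factor that binds AP-1 and cyclic AMP sites and can repress or activate, lay nearest the threshold. It was at 14.7, 14.7 and 10.8 CPM under vehicle and at 24.3, 23.8 and 26.1 CPM under tazemetostat. The groups did not overlap, and the lowest of 9 tazemetostat libraries (23.0 CPM) was above the highest of 9 vehicle libraries (15.5 CPM). The log2 fold change was 0.88 (SE 0.131, 95% interval 0.59 to 1.18), 1.85-fold, with an edgeR adjusted p of 0.108 and rank 8 of 20301 by p. ATF3 was called without vehicle mouse M_766 (0.97, edgeR adjusted p = 0.0132) or M_770 (0.75, edgeR adjusted p = 0.0245), and with DESeq2 (adjusted p = 1.099e-06). Its adjusted p ran from 7.258e-09 (no low-count filter) to 0.534 (without M_774) over 19 alternatives, while the fold change stayed between 0.75 and 0.99.

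JUN (chromosome 1, 58780788 to 58784327, minus strand), an immediate-early gene, was at 102, 237 and 290 CPM under vehicle and at 472, 410 and 350 CPM under tazemetostat. Every tazemetostat mouse was above every vehicle mouse, but the vehicle mice spread over a wider range than the gap between the groups. The log2 fold change was 0.97 (SE 0.294, 95% interval 0.32 to 1.62, edgeR adjusted p = 0.497), and 0.65 without M_766 (edgeR adjusted p = 0.099). JUN was called with the mouse as a random effect (1.09, limma adjusted p = 0.00766), a fit with the limit given above.

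FOS (chromosome 14, 75278774 to 75282230, plus strand), whose protein pairs with JUN, was at 17.9, 48.9 and 42.0 CPM under vehicle and at 85.8, 63.5 and 46.4 CPM under tazemetostat. Tazemetostat mouse M_774 lay below vehicle mouse M_769, so the groups overlapped. The log2 fold change was 0.85 (SE 0.317, 95% interval 0.15 to 1.55, edgeR adjusted p = 0.655), and 0.53 without M_766 (edgeR adjusted p = 0.433). FOS was called with the mouse as a random effect (0.95, limma adjusted p = 0.0349) and not once library letters were added as a replicate block (limma adjusted p = 0.0595). The limit of the shared correlation applies to both fits.

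FOSB, another immediate-early Fos gene, followed the same order of mice within tazemetostat. It was at 3.88, 10.1 and 13.1 CPM under vehicle and 21.97, 16.4 and 8.07 CPM under tazemetostat, with M_774 below M_769 and M_770. The log2 fold change was 0.78 (SE 0.412, edgeR adjusted p = 0.812). Without M_766 the FOSB value was 0.43, and without M_767 it was 0.45. The gene model of FOSB lies wholly within that of ERCC1, a DNA repair gene on the other strand, so without a stated strand setting its counts are uncertain. ERCC1 was at 45.0 ± 9.72 and 42.0 ± 4.51 CPM (SD, n = 3 mice per group), vehicle first, and was highest in M_766, where FOSB was lowest.

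FOSL2, which encodes the Fos-related protein FRA2, was at 6.74, 8.11 and 7.97 CPM under vehicle and 9.97, 8.79 and 9.25 CPM under tazemetostat. The groups were separate, by a small difference (log2 fold change 0.30, SE 0.130, edgeR adjusted p = 0.743). With the level of other immediate-early genes as a covariate it was 0.14. FOSL1, which encodes FRA1, was scarce, with 25 to 40 counts per vehicle mouse and 17 to 40 per tazemetostat mouse. Its log2 fold change of -0.26 (SE 0.370, edgeR adjusted p = 0.95) had a 95% interval from -1.08 to 0.56.

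JUNB and JUND, whose proteins are weaker activators than JUN, overlapped between the groups. JUNB was at 18.1, 19.3 and 19.1 CPM under vehicle and 22.3, 24.5 and 19.0 CPM under tazemetostat. Its log2 fold change was 0.22 (SE 0.112, edgeR adjusted p = 0.801), 0.18 without library M_768_C (edgeR adjusted p = 0.672) and 0.13 without mouse M_768 (edgeR adjusted p = 0.947). Its gene model lies wholly within HOOK2, a motor-adaptor gene on the other strand, at 15.5 ± 4.59 and 14.2 ± 0.760 CPM (SD, n = 3 mice per group), vehicle first. Without a stated strand setting the counts of JUNB are thus uncertain, like those of FOSB. JUND was at 362, 325 and 238 CPM under vehicle and 281, 339 and 290 CPM under tazemetostat, which lay within the vehicle range. Its log2 fold change was -0.02 (SE 0.147, 95% interval -0.35 to 0.30, edgeR adjusted p = 0.99), and -0.11 without M_768_C (edgeR adjusted p = 0.844), the library with the highest JUND level.

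BATF was at 1.40, 1.146 and 1.12 CPM under vehicle and 1.93, 2.01 and 1.66 CPM under tazemetostat, from 62 to 137 counts per mouse. The mouse sums were separate but single libraries overlapped, at 0.677 to 2.05 CPM in vehicle and 1.51 to 2.92 CPM in tazemetostat mice. The log2 fold change was 0.61 (SE 0.201, 95% interval 0.16 to 1.05, edgeR adjusted p = 0.581), and 0.53 without M_768_C. BATF3 was at 8.17, 7.61 and 9.56 CPM under vehicle and 9.998, 11.4 and 8.66 CPM under tazemetostat, with overlap. Its log2 fold change was 0.25 (SE 0.145, edgeR adjusted p = 0.835), 0.21 without library M_768_C and 0.15 without mouse M_768, and 0.0952 with the level of other immediate-early genes as a covariate. BATF3 lies 65.6 kb from ATF3 on chromosome 1, and BATF 240.2 kb from FOS on chromosome 14. The IRF partners of BATF did not pass: IRF4 was at 101 ± 16.7 and 108 ± 12.02 CPM and IRF8 at 184 ± 43.5 and 213 ± 8.44 CPM, vehicle first.

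**Figure D2:**
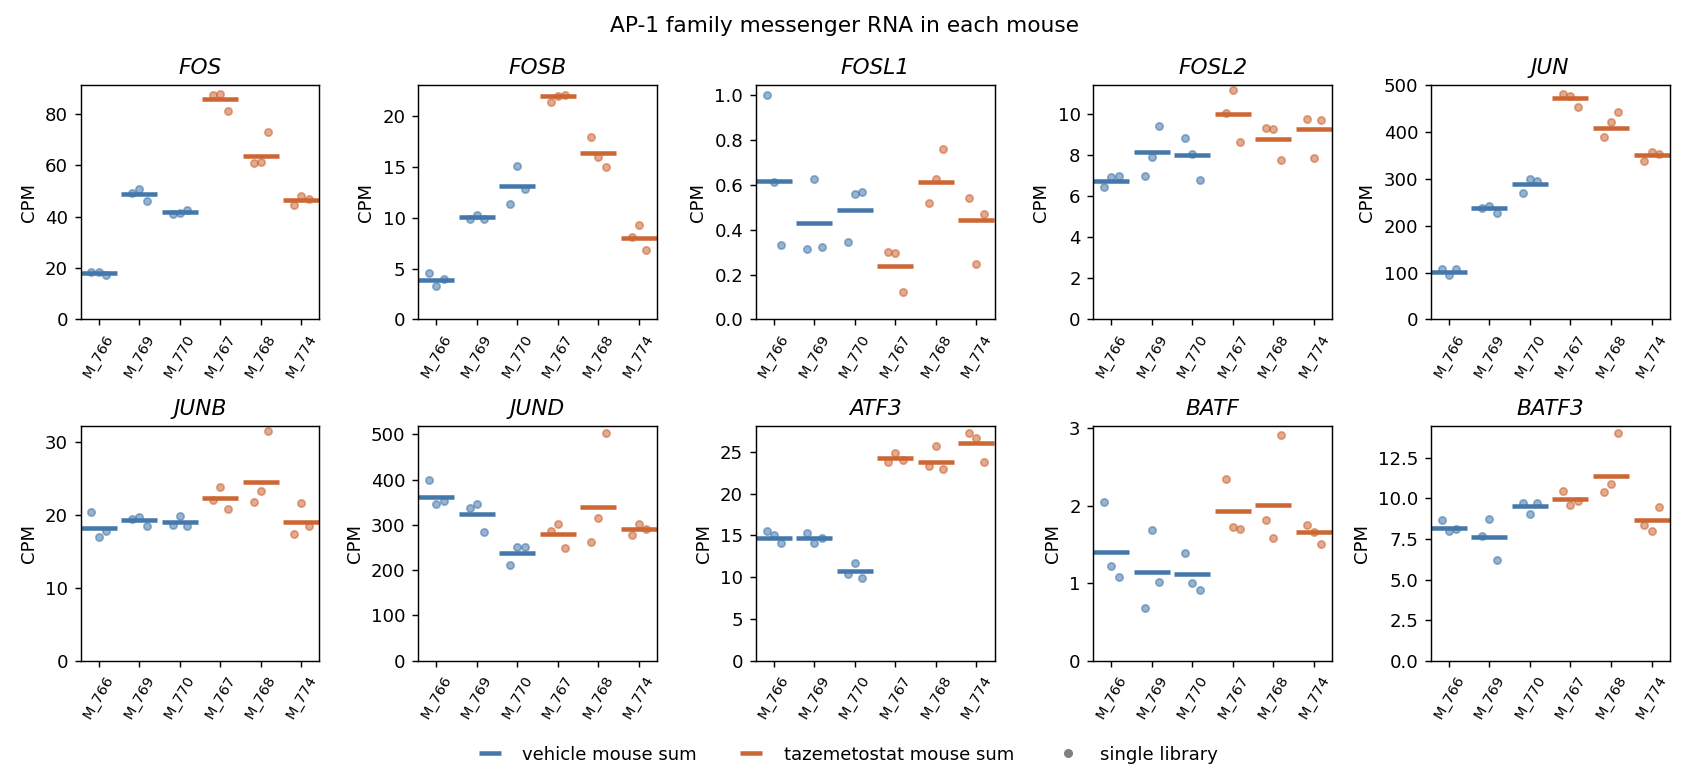
Each panel gives the CPM of 1 member in the 6 mice, with a horizontal line for the sum of a mouse's libraries and a point for each library; vehicle mice are blue and tazemetostat mice orange. ATF3 splits by group (10.8 to 14.7 against 23.8 to 26.1 CPM), FOS runs from 17.9 to 85.8 CPM, and JUND overlaps, with M_768_C at 503 CPM.

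**Figure D3:**
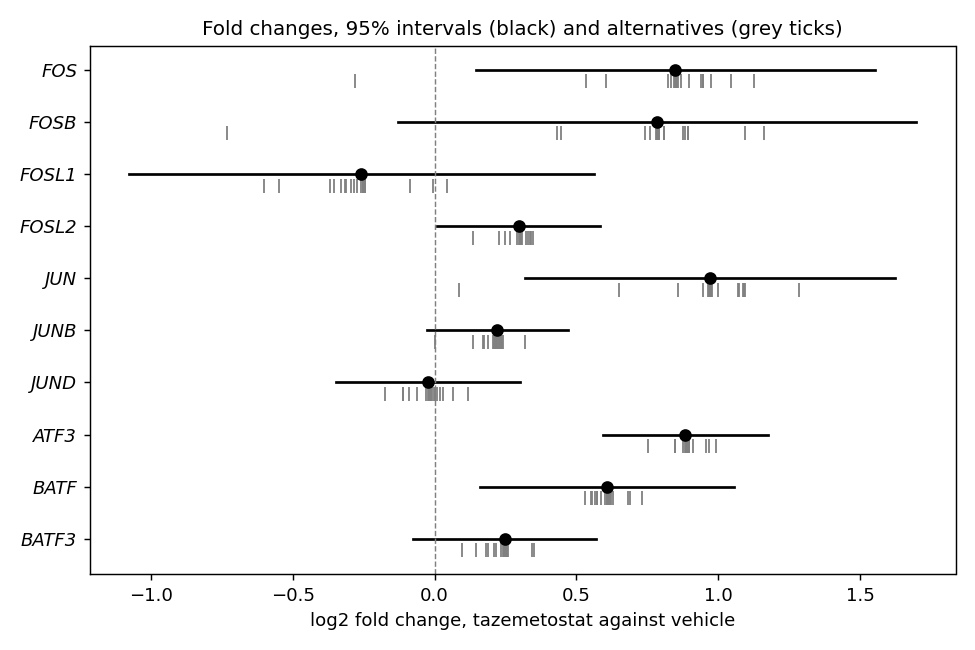
Points give the log2 fold change of each member, tazemetostat against vehicle, black lines the 95% interval of the edgeR estimate, and grey ticks the value under each alternative. ATF3 stays between 0.75 and 0.99, while FOS, FOSB and JUN each have 1 alternative near or below 0, at -0.28, -0.73 and 0.09. That alternative is the fit with the level of other immediate-early genes as a covariate. Apart from it their lowest values are 0.53, 0.43 and 0.65, each without M_766.

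The members did not share 1 order of mice. Vehicle mouse M_766 had the lowest FOS, FOSB, FOSL2, JUN and JUNB of its group, yet the highest JUND and BATF and an ATF3 level equal to that of M_769 at 14.7 CPM. Tazemetostat mouse M_774 had the lowest FOS, FOSB, JUN, JUNB, BATF and BATF3 of its group, but the highest ATF3. Over the 6 mouse sums Pearson's r of log2 CPM was 0.96 for FOS with JUN and 0.94 for FOS with FOSB, against 0.53 for FOS with ATF3, 0.57 for JUN with ATF3 and 0.90 for ATF3 with BATF. Group membership enters these 6 points, so the values are descriptions.

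Mice of 1 group were then compared with the spread among their own libraries, in 1 edgeR fit of all 18 libraries. Since that spread may be technical, these p-values may set differences between animals against technical noise only. FOS libraries of a mouse lay close together, the highest over the lowest being 1.04 to 1.199, and those of JUN likewise at 1.06 to 1.14. Among vehicle mice FOS differed 2.68-fold between M_769 and M_766 (edgeR adjusted p = 3.48e-10), JUN 2.80-fold between M_770 and M_766 (edgeR adjusted p = 3.16e-11) and FOSB 3.32-fold between M_770 and M_766 (edgeR adjusted p = 1.213e-07). JUN ranked 6 and FOS 12 of 17867 genes by p in this comparison. With JUND and ATF3 (1.40-fold, edgeR adjusted p = 0.000512), 5 of 10 members were called among vehicle mice, where 35.5% of genes were. The JUND call (edgeR adjusted p = 0.0127) was lost without library M_770_A (0.0707).

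Among tazemetostat mice the same 3 genes were called, FOS (1.84-fold, edgeR adjusted p = 1.554e-06), FOSB (2.71-fold, edgeR adjusted p = 2.331e-06) and JUN (1.34-fold, edgeR adjusted p = 0.00139), each highest in M_767 and lowest in M_774. That is 3 of 10 members, where 6.04% of genes were called, and FOS ranked 7 and FOSB 11 by p. ATF3 was not called there (1.08-fold, edgeR adjusted p = 0.509). These 3 genes were called under each of 18 fits that left out 1 library. With 1 library left out, the genes called among tazemetostat mice ran from 416 (without M_774_A) to 4282 (without M_768_A), against 1080 with all. Without M_768_C they were 3371 and the members called were 3, while without M_768_A the members called were 6. Whether the spread differed between the groups was not tested.

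**Figure D4:**
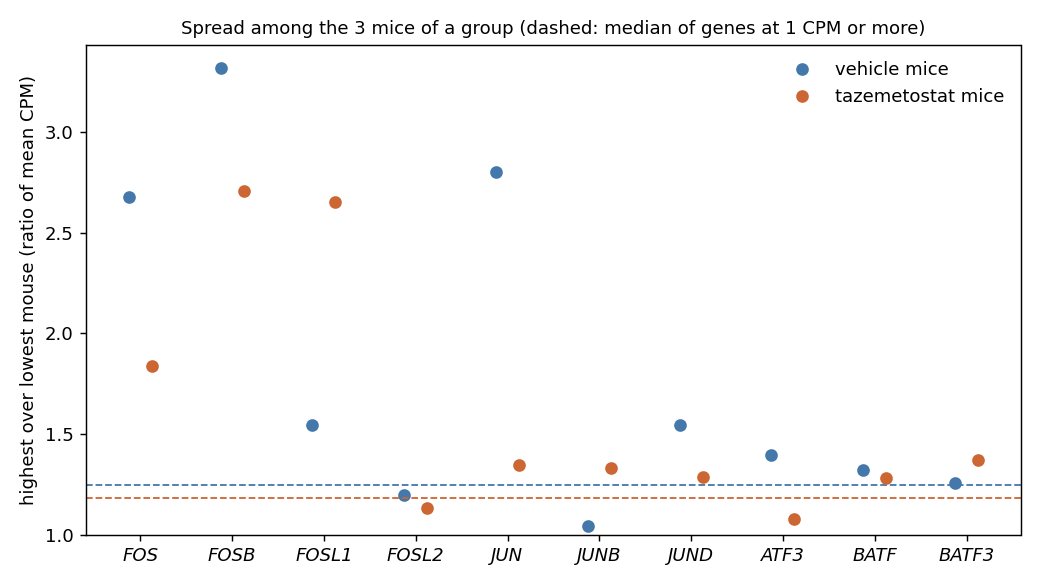
For each member, points give the ratio of the highest to the lowest mouse mean CPM among the 3 vehicle mice (blue) and the 3 tazemetostat mice (orange), and dashed lines give the median ratio of 14335 genes at 1 CPM or more, 1.25 and 1.18. FOS, FOSB and vehicle JUN lie far above the lines, whereas ATF3 among tazemetostat mice lies below its line; FOSL1 is high on few counts.

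Other immediate-early genes, a list that holds no member, lay mostly higher in tazemetostat mice. Of the 21 that were tested, 19 were positive (median log2 fold change 0.39), all mice were separate and higher in 7 and separate and lower in 0, and 0 were called by edgeR's adjusted p. Over all tested genes 48.1% were positive, 6.58% separate and higher and 6% separate and lower, against which the counts of this list and of those below are to be read. ZFP36, which destabilises inflammatory messenger RNA, was at 26.9 ± 3.92 and 39.2 ± 2.38 CPM, IER3 at 3.62 ± 0.916 and 7.85 ± 2.25 CPM, EGR1 at 2.76 ± 1.22 and 7.19 ± 3.48 CPM, and PPP1R15A at 49.5 ± 7.16 and 68.7 ± 11.5 CPM (SD, n = 3 mice per group), vehicle first. The mean log2 CPM of this list was 3.56, 4.07 and 3.89 under vehicle and 4.38, 4.47 and 4.12 under tazemetostat. With that level as a covariate the log2 fold change was -0.28 for FOS, -0.73 for FOSB and 0.09 for JUN, but 0.99 for ATF3 and 0.68 for BATF, and 0 members were called by edgeR (adjusted p = 0.333 for ATF3). With 6 mice and 3 fitted terms these values are imprecise (SE 0.257 for FOS, 0.212 for ATF3), the covariate itself differs between the groups, and the part of tissue dissociation was not tested.

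**Figure D5:**
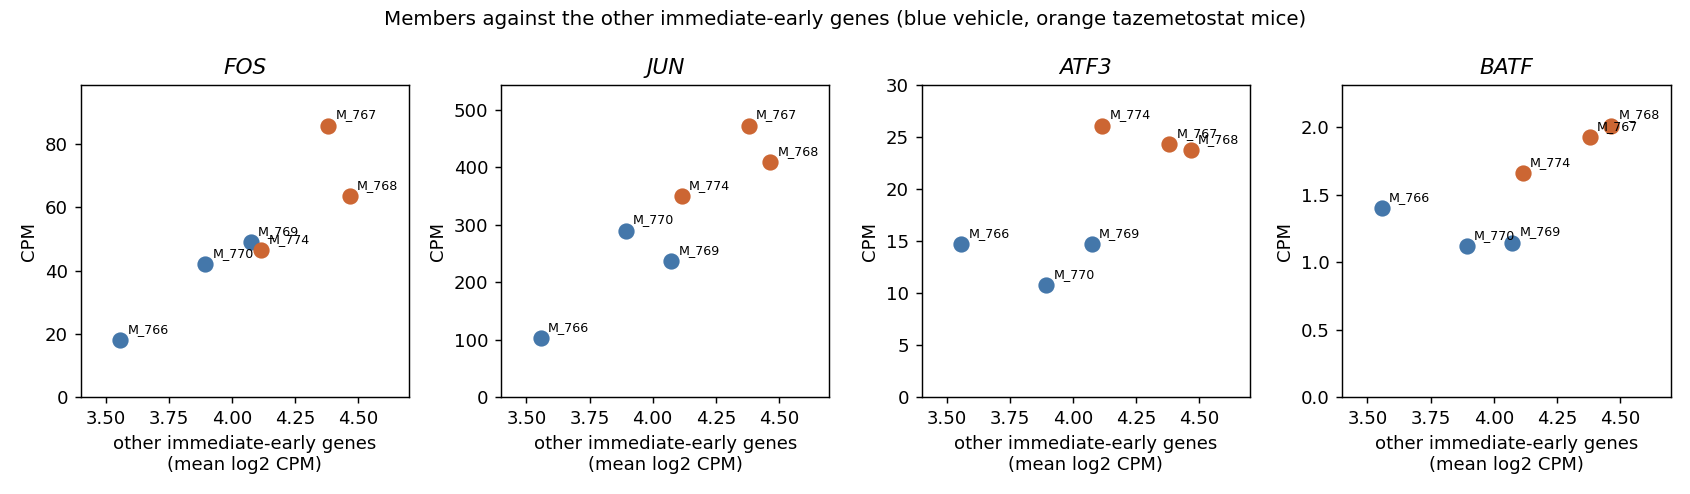
Each panel plots the CPM of FOS, JUN, ATF3 or BATF in a mouse against the mean log2 CPM of the other immediate-early genes in that mouse; vehicle mice are blue and tazemetostat mice orange. FOS is lowest in M_766, where that mean is 3.56, and highest in M_767 and M_768, where it is 4.38 and 4.47, while ATF3 forms 2 levels by group.

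Upstream and feedback genes were read from lists that hold no member. Of 35 kinases and serum response factors that lead to FOS and JUN, 22 were positive (median 0.02), 3 were separate and higher, 2 separate and lower, and 0 were called. The stress kinase gene MAP3K5 was at 10.2 ± 1.05 and 12.7 ± 1.65 CPM, MAP2K1 at 41.8 ± 0.826 and 46.6 ± 0.599 CPM, MAP3K3 at 39.6 ± 1.44 and 35.2 ± 2.30 CPM, and MAPK11 at 0.847 ± 0.204 and 0.556 ± 0.101 CPM. Of 12 tested genes that switch this signalling off, 11 were positive (median 0.24), 5 were separate and higher, and 0 were called. The phosphatase gene DUSP1 was at 49.5 ± 16.6 and 96.2 ± 12.1 CPM, DUSP10 at 5.69 ± 0.780 and 7.89 ± 1.01 CPM, DUSP6 at 1.08 ± 0.308 and 1.66 ± 0.112 CPM, and DUSP2 at 16.3 ± 1.19 and 19.4 ± 2.58 CPM (SD, n = 3 mice per group, vehicle first).

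ATF3 is a known target of the integrated stress response and of p53. Of 18 tested genes of the integrated stress response, 12 were positive (median 0.03), 1 was separate and higher and 1 separate and lower, and 0 were called. ATF4, its central factor, was at 669 ± 75.7 and 611 ± 46.0 CPM. DDIT4, an inhibitor of mTOR signalling, was at 105 ± 5.72 and 147 ± 23.6 CPM, PHGDH at 317 ± 34.4 and 268 ± 19.8 CPM, CHAC1 at 8.44 ± 0.474 and 10.1 ± 1.503 CPM, and SLC7A11 at 9.38 ± 1.85 and 11.5 ± 1.80 CPM. Of 19 p53 targets 13 were positive (median 0.10), 7 were separate and higher, 0 separate and lower, and FAS, a death receptor, was the 1 called (14.1 ± 0.887 and 24.6 ± 0.539 CPM, edgeR adjusted p = 0.0277). The cell-cycle inhibitor CDKN1A was at 44.7 ± 12.01 and 73.6 ± 6.28 CPM, ZMAT3 at 43.9 ± 5.97 and 58.2 ± 4.501 CPM and SESN1 at 7.60 ± 1.07 and 10.1 ± 0.479 CPM (SD, n = 3 mice per group, vehicle first).

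Textbook AP-1 targets were also counted. Of 26 listed genes, most of them described in other cell types, 16 were tested, of which 6 were positive (median -0.07), 1 separate and higher, 2 separate and lower, and 0 called. The cyclin gene CCND1 was at 0.608 ± 0.173 and 1.31 ± 0.268 CPM and AREG at 0.456 ± 0.184 and 0.633 ± 0.0229 CPM, whereas IL2RA was at 4.42 ± 0.521 and 2.55 ± 0.713 CPM and EZR, which links membrane and cytoskeleton, at 667 ± 19.3 and 576 ± 22.4 CPM (SD, n = 3 mice per group, vehicle first). Of 32 tested other bZIP factors 18 were positive (median 0.06), 3 were separate and higher, 3 separate and lower, and 0 called. Among them MAF was at 0.576 ± 0.143 and 1.17 ± 0.334 CPM, XBP1 at 114 ± 15.2 and 145 ± 15.8 CPM, BATF2 at 0.314 ± 0.0887 and 0.480 ± 0.0251 CPM and ATF6B at 86.7 ± 0.948 and 78.7 ± 3.97 CPM.

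The summed T-cell transcripts overlapped between the groups. The 16 markers summed to 156 to 187 CPM in vehicle and 160 to 191 CPM in tazemetostat mice, CD3D and CD3G were at 0 counts, and CD3E had 3, 4 and 9 counts in vehicle and 1, 7 and 3 in tazemetostat mice. Of 6 tested, 3 were positive, and CD247 at 36.6 ± 5.82 and 49.2 ± 3.95 CPM was the 1 separate and higher. PRF1 was at 4.51 ± 0.811 and 3.84 ± 0.158 CPM, TRBC2 at 115 ± 19.4 and 107 ± 13.3 CPM and CD8A at 1.51 ± 0.102 and 1.36 ± 0.106 CPM. With the mean T-cell marker level as a covariate ATF3 had a log2 fold change of 0.90 (edgeR adjusted p = 0.254), JUN 0.9997 and FOS 0.90. TRBC2 and CD247 were the highest of this list while CD3D and CD3G had 0 counts, so this level may not measure T-cell content. That fit therefore cannot show what part T cells had. The 10 fibroblast and endothelial markers summed to 2.60 to 6.08 CPM in vehicle and 3.91 to 5.54 CPM in tazemetostat mice, with COL3A1, LUM and CDH5 at 0. The counted genes are human and the hosts were mice, so these levels do not show whether mouse cells of the tumour were absent. The collagen gene COL1A2 was not at 0, with 2.97 ± 1.72 CPM under vehicle and 2.91 ± 0.834 CPM under tazemetostat. PDGFRB lay at 0.247 ± 0.113 CPM under vehicle and 0.618 ± 0.178 CPM under tazemetostat. CLDN5 (0.148 ± 0.0633 and 0.228 ± 0.0540 CPM), COL1A1 (0.227 ± 0.0494 and 0.282 ± 0.0830 CPM) and PECAM1 (0.826 ± 0.154 and 0.807 ± 0.212 CPM) overlapped between the groups. Of 5 tested, 0 were called. Among the B-cell markers BLK was at 248 ± 13.6 and 200 ± 13.3 CPM, MME at 165 ± 18.3 and 133 ± 8.46 CPM, CD72 at 145 ± 36.7 and 184 ± 7.54 CPM and MS4A1 at 314 ± 71.0 and 382 ± 7.61 CPM, and 0 of 12 were called. The part of these other cells in the members' values was not tested.

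Genes whose pattern was most like that of a member were listed by Pearson's r, without a test. Over the 6 mouse sums those nearest ATF3 were PSTPIP2 (0.995), HSDL2 (0.995), CD274 (0.991), GOLGA7 (0.987) and THAP1 (0.983). Those nearest JUN were SLC22A5, CYLD, ZDHHC17, RBMXL1 and HSPA1A (0.994 to 0.999), near FOS were NIPA1, GDAP2, RABL3 and NUDT21 (0.989 to 0.995), and nearest BATF were WDSUB1, YIPF5, LEPROTL1, P2RX5 and HARBI1 (0.98 to 0.99). These are the highest values among all genes compared, over points that include the group difference. Over the 18 libraries after each mouse's mean was removed, the nearest were other genes: BAD, CCND3, CYC1, ATAD3A and HPCAL1 for FOS (0.92 to 0.94, and 0.80 to 0.86 without M_768_C), KLHL17, FAAP100, STK11, TMC6 and IMP4 for JUN (0.88 to 0.92), NFKB2, RITA1, WAS, DHPS and TNFRSF14 for BATF (0.83 to 0.89), and LANCL3, TJAP1, IGHV3-23, RNF217 and ALOX12-AS1 for ATF3 (0.76 to 0.79). Within mice FOS had an r of 0.89 with JUND (0.705 without M_768_C) and -0.16 with FOSB (0.047 without it). Over the 6 mouse sums the values were -0.38 with JUND and 0.94 with FOSB.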

How the data were processed

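RNA of sorted OCI-Ly18 cells was counted in 18 libraries of 6 mice. The authors deposited whole-number read counts for 58735 Ensembl genes, which were not normalized, per the file headers and the values themselves. Per the submitters' processing notes, hg38 and DESeq2 are named, the latter without a role. How reads were aligned and counted, and by strand or not, is not given in the sources used here. Each of the 58735 genes had the same start and end in GENCODE release 29. Deposited gene lengths were used for levels per kilobase.

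Counts were summed per mouse and tested by the quasi-likelihood method of edgeR 4.0.16 (R 4.3.3), with TMM scaling and a filterByExpr minimum of 10 counts. P-values were adjusted by Benjamini-Hochberg over 20301 genes (threshold 0.05) and measure the spread between these mice only. Genes removed held 0.0602% of the counts. CPM are scaled by TMM factors, except summed marker levels and genes not tested, which use all counts. The SE is the size of the log2 fold change over the square root of F. Mice of a group were compared in a fit of the 18 libraries, over 17867 genes. Log2 CPM used a prior count of 2. Steps were tested on simulated data. Alternatives used DESeq2 1.42.0, limma 3.58.1, other scaling, filters and covariates, and left out mice or libraries. In each other list, the up to 4 genes with the smallest p are named. ATF4, CD3D, CD3E, CD3G, COL1A2, COL3A1, LUM and CDH5 are named too, chosen after their values were seen. All 10 members are named. Some genes that the rules would name are not reported here. Members and lists were chosen with earlier results of these data known.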

Additional observations from a re-analysis of the deposited data

Results flagged for a closer look

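Each member was checked for a library far from the other libraries of its group, in 20 sets of 9 libraries, where chance alone marks about 1 set in 20. Library M_768_C lay far above the other 8 tazemetostat libraries for 3 members: JUND at 503 CPM, JUNB at 31.4 CPM and BATF3 at 14.1 CPM. Its ATF3 level of 23.0 CPM was the lowest of the 9. FOSL1 in vehicle library M_766_A, at 1.0001 CPM from 19 counts, lay far above the other 8 vehicle libraries. Libraries of a mouse are not independent of each other.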

How the results depend on the processing

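Genes called between the groups numbered 7 as reported, 252 with no low-count filter, 119 with DESeq2, 217 with the mouse as a random effect, 1 with the other immediate-early level and 0 with the T-cell level as a covariate, and 0 to 59 with 1 mouse left out (59 without M_770, 26 without M_766). Members called numbered 0 as reported, 4 without the filter, 1 with DESeq2, 3 with the mouse as a random effect and 0 to 1 with 1 mouse left out. Without the filter FOS had nearly the same log2 fold change (0.86, against 0.85 as reported) but an SE of 0.114 against 0.317. Why the filter changed the calls was not tested. Members at an unadjusted p under 0.05 numbered 5, then 1 with the immediate-early covariate and 3 to 7 with 1 mouse left out. The 4 separate members stayed 4 in number over 9 alternatives.

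With the library letter as a replicate block beside the mouse, 176 genes and 2 members were called. Same-letter libraries of different mice had a mean correlation of deviations of -0.0148 (45 pairs), against 0.0076 for other letters, so the letters were not taken as pairing. Mouse numbers are not shared between groups.

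Among vehicle mice the genes called ran from 4558 to 9531 with 1 library left out, the highest without M_768_C, and members from 4 to 6. Among tazemetostat mice they ran from 416 to 4282 (2936 without the filter), and members from 3 to 6 (5 without the filter).

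Reversed directions were those of JUND (0.12, 0.02, 0.03 and 0.01 without M_766, M_769, M_767 or M_774, 0.001 with the mouse as a random effect, 2e-04 with the block, 0.065 with the immediate-early covariate, and -0.174 to 0.118 over left-out mice), FOSL1 (0.042 without M_767, and -0.602 to 0.042 over left-out mice) and, with that covariate, FOS (-0.28), FOSB (-0.73) and JUNB (-1e-04). The cause was not tested. Depth was lowest for FOSL1 (17 to 40 counts per mouse) and BATF (62 to 137).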
